A study of Homo sapiens with 8 samples.

Results

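Peaks of FLI1, a transcription factor of the ETS family, were examined at small RNA genes away from coding and lncRNA start sites. Start sites of other gene types and overlap with gene bodies were not excluded. Genes of type snRNA, snoRNA, scaRNA, misc_RNA or miRNA in the GENCODE annotation of GRCh37 were kept when no start site of a protein-coding or lncRNA gene lay within 3 kb of their 5' end. This left 6476 of 8452 small RNA genes, with 1605 of 1914 snRNA, 977 of 1458 snoRNA, 1652 of 2031 misc_RNA and 2242 of 3049 miRNA genes. The annotation has no type scaRNA, and the 36 members with a SCARNA symbol are typed as snoRNA. The region of each gene was its 5' end with 1 kb on either side. A region was counted in a library when it held the summit of a peak with a −log10 q of at least 3, called a passing summit here. The closest member to a start site, AL359851.1, lay at 3002 bp, and the farthest genes left out, AL133260.1 and MIR1179, at 2997 bp.

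The chromatin came from 2 human lymphoma cell lines, OCI-Ly1 and VAL, both of the germinal center B-cell type of diffuse large B-cell lymphoma. No treatment is given in the labels, and both lines were precipitated with the same rabbit polyclonal antibody against FLI1. Each line had 2 FLI1 libraries and 2 libraries of input DNA, of which the input is not analysed here. The list of OCI-Ly1 replicate 1 held 37 intervals, 33 of them longer than 1 Mb and 1 of them passing, and was left out, so OCI-Ly1 stands on 1 library. Where 3 values are given in a row without names, the order is OCI-Ly1 (its replicate 2), then the first and then the second VAL replicate.

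Small RNA genes do different work in the cell. The U1, U2, U4, U5 and U6 snRNAs build the spliceosome, the U6atac and U4atac snRNAs serve the minor spliceosome, and U3 snoRNA takes part in processing ribosomal RNA. Y RNA, 7SK and the 7SL RNA of the signal recognition particle act as scaffolds for proteins, and miRNAs pair with messenger RNA through their seed. Many of these genes exist as near-identical copies and as large numbers of pseudogenes, and ETS factors such as FLI1 bind DNA around a GGAA core.

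The stretches below surround the matches to CCGGAAA or CCGGAAG, searched on both strands, that lay within 50 bp of a passing summit. They are shown because they are the places where a FLI1-type motif and a summit coincided at a member. The motif is in capitals, with 20 bases on either side, read 5' to 3' on the strand of the motif in GRCh37.
RNU6ATAC, chr9:137029950-137029996, plus strand: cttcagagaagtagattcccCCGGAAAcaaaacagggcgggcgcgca
RNU6ATAC, chr9:137030088-137030134, minus strand: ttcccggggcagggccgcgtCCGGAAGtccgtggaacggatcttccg
SNORD3C, chr17:19093805-19093851, plus strand: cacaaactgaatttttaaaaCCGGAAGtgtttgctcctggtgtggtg
MIR4487, chr11:47421919-47421965, plus strand: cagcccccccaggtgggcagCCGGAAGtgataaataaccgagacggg
MIR4425, chr1:25348976-25349022, plus strand: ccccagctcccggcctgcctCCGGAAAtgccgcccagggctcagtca
U3 on chromosome 10, chr10:43913661-43913707, plus strand: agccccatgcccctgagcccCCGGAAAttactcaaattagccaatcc
AC215219.1, chr12:74324-74370, minus strand: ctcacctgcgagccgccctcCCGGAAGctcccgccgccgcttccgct
AC079949.1, chr12:127650591-127650637, minus strand: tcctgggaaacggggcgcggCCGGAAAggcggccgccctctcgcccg
AL161626.1, chr9:79186766-79186812, plus strand: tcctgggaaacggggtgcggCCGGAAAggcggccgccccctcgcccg

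SNORD3B-1 and SNORD3B-2 hold the same 47 bases as SNORD3C. The genes RNU1-2 and RNVU1-9 are printed whole because U1 genes with nearly this sequence carried the summits in all 3 libraries, with the base of each summit in capitals.
RNU1-2, chr1:17222475-17222638, plus strand: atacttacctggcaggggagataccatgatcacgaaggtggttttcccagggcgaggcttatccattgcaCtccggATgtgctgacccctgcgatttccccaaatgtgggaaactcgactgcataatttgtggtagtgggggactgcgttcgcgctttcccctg
RNVU1-9, chr1:147511004-147511167, minus strand: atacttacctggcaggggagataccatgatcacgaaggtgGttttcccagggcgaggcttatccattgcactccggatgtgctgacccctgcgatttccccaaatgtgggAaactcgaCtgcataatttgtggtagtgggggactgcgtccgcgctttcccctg

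FLI1 summits were rare at these genes. With repeats included they were more frequent than in 2 kb genome tiles over 3 kb from a coding or lncRNA start site. In OCI-Ly1 replicate 2, 33 of 6476 regions held a passing summit, or 0.51% (95% Wilson interval 0.363 to 0.715), against 0.139% of genome tiles of 2 kb that were also over 3 kb from a coding or lncRNA start site. VAL replicate 1 had 14 regions, or 0.216% (0.129 to 0.363), against 0.0328% of such tiles. VAL replicate 2 had 39 regions, or 0.602% (0.441 to 0.822), against 0.191% of tiles. In each library the tile share lay below the interval of the members. Many of these summits lay in repeated sequence, and with those in mostly unique sequence alone the counts were 17, 1 and 20, so that the VAL replicate 1 count rested almost wholly on repeats; the tiles were not filtered in this way. These intervals cover counting error only, and they treat genes that share a peak or a sequence as separate. The mix of distances also differed, as 412681 of 1223818 tiles lay over 50 kb from a coding or lncRNA start site, against 1334 of 6476 members. Over all 2 kb tiles, near start sites or not, the shares were 0.369%, 0.067% and 0.447%. The 5' ends of all genes were called far more often, at 6.41%, 1.1% and 6.84%, with 14.1%, 2.38% and 15.1% for protein-coding genes and 5.06%, 0.834% and 5.19% for lncRNA genes. The 1976 small RNA genes within 3 kb of a coding or lncRNA start site reached 4.25%, 0.759% and 4.86%.

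The gene types did not separate. Of the snRNA regions 10, 6 and 14 were called in the 3 libraries, and of the snoRNA regions 5, 4 and 6. Among miRNA regions the counts were 13, 4 and 14. The misc_RNA regions, which hold the Y, 7SK and 7SL RNA genes and their pseudogenes, gave 5, 0 and 5. The highest share was that of snRNA in VAL replicate 2, at 0.872%, and the intervals of the types overlapped within every library.

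**Figure D1:**
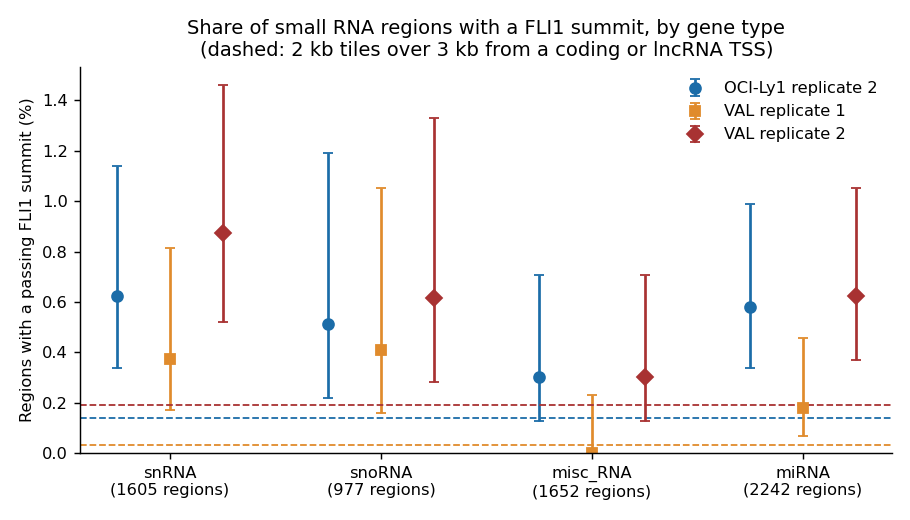
Percent of regions with a passing FLI1 summit (vertical axis) for the 4 gene types (horizontal axis) in the 3 libraries. Points are shares, bars are 95% Wilson intervals and dashed lines are the shares of 2 kb tiles over 3 kb from a coding or lncRNA start site. The types overlap within each library, and snRNA in VAL replicate 2 is highest at 0.872%.

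By count of regions U1, U3 and the miRNA genes with a miRNA symbol stood above the members as a whole. Most of the called U1 and U3 regions lay in repeated sequence. Of all members 53 were called in at least 1 library, or 0.818% (95% Wilson interval 0.626 to 1.07). Of 114 U1 regions 9 were called (7.89%, 4.21 to 14.3), and of 78 U3 regions 5 (6.41%, 2.77 to 14.1). These intervals treat near-identical copies as separate regions. With summits in mostly unique sequence alone, the U1 regions left were RNVU1-19 and RNU1-64P, and the U3 region left was the copy on chromosome 10. Whether U1 and U3 stand above the other members without repeats was not tested. The U6 family, with 1128 regions the largest family of snRNA genes here, had 1 called region, the pseudogene RNU6-395P (0.0887%, 0.0157 to 0.5). No region was called among 77 of U4, 147 of U7, 277 with an H/ACA snoRNA name, 158 with a SNORD symbol other than U3 and 36 with a SCARNA symbol, but the upper limits of these families, from 1.37% to 9.64%, all lay above the share of all members, so that a lower share was not detectable. Among snoRNA genes outside these names, 2 of 373 snoU13 regions were called and 1 of U8, each in 1 library. Of 824 miRNA genes with a miRNA symbol 16 were called (1.94%, 1.2 to 3.13), an interval above that of all members. MIR3648 and MIR3687 among them share a peak in each library. Whether this family stands above the other members without repeats was not tested. Of 1418 miRNA genes known only by a clone name 5 were called (0.353%, 0.151 to 0.823).

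Most regions were called in 1 library. Of the 53 regions called in any library, 33 were called in 1, 7 in 2 and 13 in all 3. Of the regions called in 1 library, 14 came from OCI-Ly1 and 19 from the second VAL replicate, and the first VAL replicate had none of its own. The 14 regions of VAL replicate 1 were all among the 39 of VAL replicate 2 (35.9% of the latter). OCI-Ly1 replicate 2 and VAL replicate 2 shared 19 regions, which is 57.6% and 48.7% of their lists. For the 5' ends of all genes the corresponding shares were 64.2% and 60.1%, and between the VAL replicates 91.7% of the first and 14.8% of the second. The summits of members called in 1 library were weak, with a median −log10 q of 3.82 and a median of 7 reads, the reads being inferred from the written fold and p. Those of members called in all 3 had a median −log10 q of 21.9 and a median of 40 reads.

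The U1 genes, which encode the RNA that recognizes the 5' splice site, were the largest group with strong summits. RNU1-2 had −log10 q of 62.9 in the OCI-Ly1 library, 20.02 in the first VAL replicate and 48.38 in the second. RNU1-3 had 46.9, 20.72 and 44.31, and RNVU1-18 had 46.36, 17.93 and 33.59. All 3 genes passed in all 3 libraries, and VAL replicate 1 was lowest at each. RNVU1-9 had 30.36, 6.34 and 20.99, and RNVU1-7 had 21.03, 10.24 and 13.59. RNVU1-13 had 10.98, 3.38 and 9.93, the 3.38 being the lowest passing value of VAL replicate 1 among members. At RNU1-2 the summit held 53, 36 and 39 reads over local backgrounds of 1.13, 3.18 and 0.717 reads.

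Among U1 genes the calls went with the sequence of the gene, a grouping made after the values were seen. Of the 18 U1 members without a pseudogene symbol, 5 were of the length of RNU1-2 and differed from it at no more than 1 base, and all 5 were called in all 3 libraries. Another 5 of that length differed at more than 1 base, and none of them was called. The 5 called genes are near-identical copies and not independent cases. At RNU1-2, RNU1-3, RNVU1-7 and RNVU1-9 no word of 150 bases near the summits occurred once in the genome. Which of these copies the reads came from cannot be told apart. Of 8 with another length, 3 were called, namely RNVU1-13, RNVU1-15 and RNVU1-19. RNVU1-19 had 6.47, 0.76 and 3.27, while RNVU1-15 passed only in VAL replicate 2, at 6.8. Of 96 U1 pseudogenes 1 was called, RNU1-64P, in VAL replicate 2 alone with a −log10 q of 3.27. At RNU1-2, RNU1-3, RNVU1-7, RNVU1-9 and RNVU1-18 every summit lay inside the gene, between 40 and 118 bp past the 5' end. None of the U1 summits had the motif within 50 bp.

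**Figure D2:**
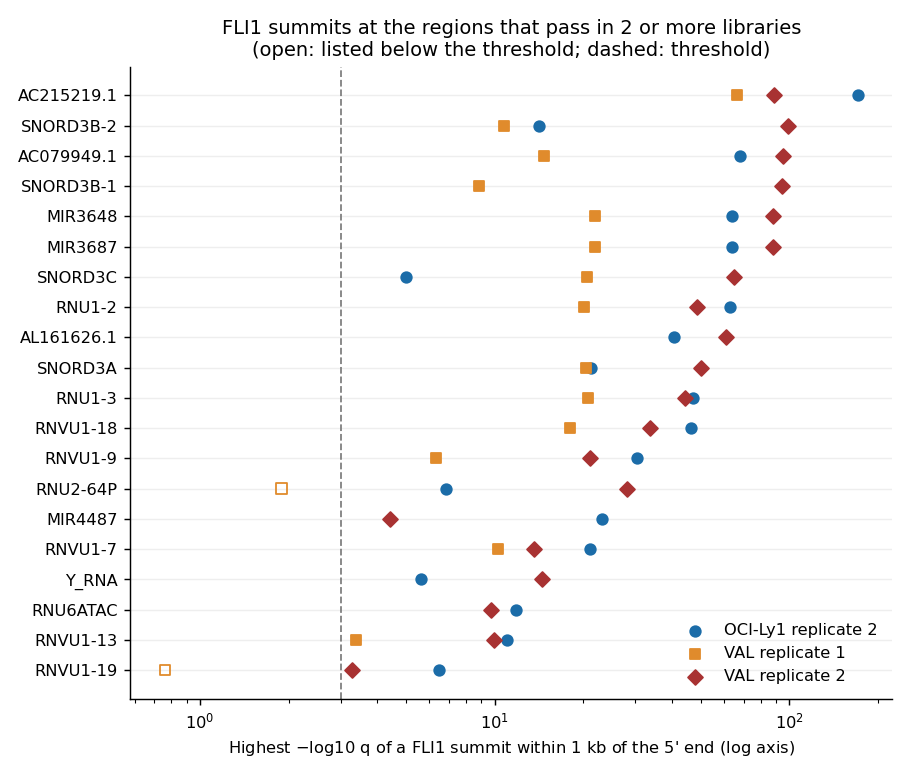
Highest −log10 q of a FLI1 summit (horizontal log axis) at the 20 regions that passed in 2 or 3 libraries (vertical axis, by gene), with a symbol for each library and open symbols for listed summits below the threshold of 3 (dashed line). AC215219.1 reaches 170.52 in OCI-Ly1 replicate 2, and VAL replicate 1 is the lowest library at most of the regions it passes in.

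The U3 genes on chromosome 17 were the second group. SNORD3A had −log10 q of 21.13 in the OCI-Ly1 library and 20.33 and 50.08 in the VAL replicates. SNORD3B-2 had 14.11, 10.77 and 98.8, and SNORD3C had 4.98, 20.58 and 64.82. VAL replicate 2 was highest at each of them. SNORD3B-1 passed in the VAL replicates at 8.86 and 94.62. In OCI-Ly1 its region held no summit, but the peak of 4053 bp whose summit lies at SNORD3B-2 covers it, and with any overlap counted 14 regions rather than 13 were called in all 3 libraries. The strongest VAL summits at the 4 genes lay downstream of the 5' end, from 295 bp at SNORD3A to 551 bp at SNORD3B-1. All 4 genes carry CCGGAAG centered at −270 bp from the 5' end, on the opposite strand, in the stretch printed for SNORD3C. SNORD3B-1 holds another motif match 272 bp past the 5' end. Weaker summits lay near the upstream match, at −287 bp for SNORD3B-1 with a −log10 q of 4.58 and at −280 bp for SNORD3B-2 with 3.38, both in VAL replicate 2, and at −317 bp for SNORD3C in OCI-Ly1 replicate 2 with 4.98. SNORD3A had a higher upstream value, 8.71 at −356 bp in OCI-Ly1 replicate 2, without the motif within 50 bp of that summit. No word of 150 bases within 100 bp of any of these upstream summits occurred once in the genome. The same held at every SNORD3C summit and at the VAL summits of SNORD3A. Which copy those reads came from cannot be told apart, so values and positions there are not particular to a gene. A U3 copy on chromosome 10 passed in OCI-Ly1 replicate 2 at 6.19, with a summit 2471 bp from a start site of the lncRNA gene LINC02916, although its 5' end lay 3298 bp away.

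RNU6ATAC, the gene of the U6atac snRNA, was called in both lines from sequence that occurs once in the genome. Its −log10 q was 11.79 in OCI-Ly1 and 9.72 in the second VAL replicate, and VAL replicate 1 listed no summit there. The summits lay at −322 and −401 bp from the 5' end, with 13 and 11 reads. Each had a motif within 50 bp, and these were different matches, printed first and second above. The nearest coding or lncRNA start site was 4205 bp from the 5' end.

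Other snRNA regions were U2 pseudogenes and single calls. RNU2-64P had −log10 q of 6.83, 1.89 and 28.01, with the passing summits at −63 and −65 bp from the 5' end. RNU2-59P reached 20.77 in VAL replicate 2 and had no listed summit in the other 2 libraries. Neither had the motif within 50 bp of its summit.

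The miRNA genes with the strongest summits were known by clone names or lay in repeated sequence. AC215219.1, at the start of the assembled chromosome 12, had −log10 q of 170.52 in the OCI-Ly1 library and 66.1 and 88.29 in the VAL replicates. Its summits lay at −982 to −997 bp from the 5' end, just inside the region, and its motif at −1025 bp, just outside. The nearest start site of a gene outside the small RNA, coding and lncRNA types lay 403 bp from its 5' end. AC079949.1 had 68.15, 14.69 and 94.9, with summits 91, 93 and 109 bp past the 5' end and folds of 10.15, 2.48 and 22.23. The local background was highest in VAL replicate 1, at 53.9 reads. AL161626.1 had 40.56 in OCI-Ly1 and 60.66 in the second VAL replicate, with no listed summit in VAL replicate 1. AC079949.1 and AL161626.1 hold the motif at the same place, 58 bp past the 5' end, in the closely similar stretches printed above. MIR3648 and MIR3687 on chromosome 21 share 1 peak in each library, with 63.66, 21.88 and 88.12. The local background there was 32.1, 174 and 24.4 reads, and folds were 5.35, 1.94 and 7.29. The median folds of all passing peaks were 6.1, 5.48 and 5.89.

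Of the miRNA genes with a symbol, MIR4487 was called in both lines from unique sequence. It had 23.05 in OCI-Ly1 and 4.42 in the second VAL replicate, with no listed summit in VAL replicate 1, and its summits lay at −585 and −689 bp from the 5' end. The first of these had the motif 6 bp away. MIR625 was called in OCI-Ly1 replicate 2 alone at 7.71, with 0.38 and 0.43 in VAL replicates 1 and 2, and MIR4425 in the same library alone at 7.07, with 0.55 and 1.51. The MIR4425 summit lay at −994 bp from the 5' end and 1 bp from the middle of its motif. MIR339 was called in VAL replicate 2 alone at 3.82, where it had 7 reads.

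Of the 21 called miRNA genes 12 matched RefSeq (GRCh38.p14) by symbol, with 19 mature miRNAs and no seed shared between them. The mature forms of the 3 genes just described that matched are printed to show this, with the seed (bases 2 to 8) in capitals.
hsa-miR-4425: uGUUGGGAuucagcaggaccau
hsa-miR-625-5p: aGGGGGAAaguucuauagucc
hsa-miR-625-3p: gACUAUAGaacuuucccccuca
hsa-miR-339-5p: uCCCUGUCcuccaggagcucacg
hsa-miR-339-3p: uGAGCGCCucgacgacagagccg
MIR4487, MIR3648 and MIR3687 had no entry.

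Y RNA was the only misc_RNA family with a region called in both lines. A Y_RNA copy on chromosome 7, in the gene body of RADIL, had 5.63 in OCI-Ly1 and 14.44 in the second VAL replicate, and VAL replicate 1 listed no summit. The words of 31 bases around its summits had a median of 2290 and 5744 copies in the genome. The other called misc_RNA regions were 4 of Y_RNA, 3 of 7SL and 1 of 7SK, each in 1 library.

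**Figure D3:**
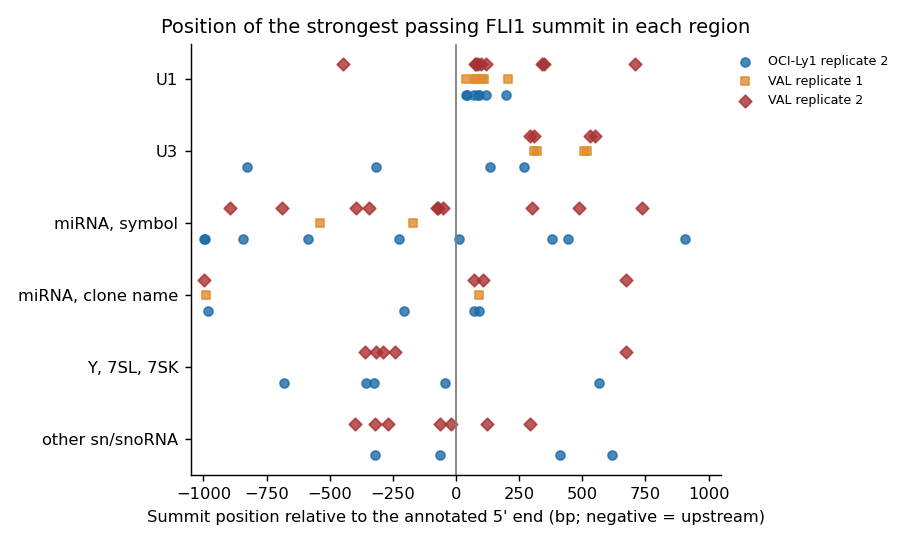
Position of the strongest passing summit relative to the annotated 5' end (horizontal axis, bp, negative upstream) in each called region, by family (vertical axis) and library (symbols). Most U1 summits lie just past the 5' end, and the U3 summits of the VAL libraries lie from 295 to 551 bp past it.

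Over all called regions the summit lay within 250 bp of the 5' end in 15 of 33 regions of the OCI-Ly1 library and in 8 of 14 and 14 of 39 regions of the VAL replicates. For snRNA these counts were 8 of 10, 6 of 6 and 8 of 14. For snoRNA they were 1 of 5, 0 of 4 and 0 of 6.

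Of the genes in 3 lists of small RNAs, those both members and called were few in number. Not every listed symbol had a record in the annotation. Records were found for 19 of 22 spliceosomal snRNAs and 13 of 16 other small RNAs with their own promoter. For miRNAs known in B cells they were found for 22 of 37 symbols. Symbols without a record, such as MIR155, MIR17 and MIR142, were not examined. Of 9 members among spliceosomal snRNA genes, 4 were called: RNU1-2, RNU1-3, RNVU1-18 and RNU6ATAC. Over all snRNA regions 15 of 1605 were called in any library (0.935%). RNU1-3 and RNVU1-18 have the same gene sequence as RNU1-2, so the called genes are not independent cases. RNU4-1, RNU4-2, RNU5A-1, RNU5B-1 and RNU5D-1 were not, and their highest −log10 q was 1.71, at RNU5B-1 in VAL replicate 2. Of 4 symbols with members among other small RNAs with their own promoter, SNORD3A was called, and RNY3, RNY4 and the 4 member records of SCARNA17 were not. Over all snoRNA regions 0.819% were called in any library, and over all misc_RNA regions 0.545%. None of 13 members among miRNA genes known in B cells was called, with a highest value of 2.33 for MIR23A and MIR27A in VAL replicate 2. Over all miRNA regions 21 of 2242 were called in any library (0.937%), so that 13 genes are too few to show a lower share. The lists also hold 29 gene records that lie close to a start site and are no members, of which 7, 3 and 9 were called. RN7SK is among them as 2 records, both with 3.27 in VAL replicate 2. Over all 1976 small RNA genes within 3 kb of a coding or lncRNA start site the shares were 4.25%, 0.759% and 4.86%. RNU1-1 had the highest values of these, with 100.49, 51.67 and 81.53, and most, such as RNU6-1 and RNY1, had no passing summit.

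The sequence under the strongest summits was often repeated. Within 100 bp of the summits of RNU1-2, RNU1-3, RNVU1-7, RNVU1-9, SNORD3C and AC215219.1, none of the words of 150 bases occurred once in GRCh37. Of the 39 summits of members called in all 3 libraries 22 had no such word, and of the 33 summits of members called in 1 library 2 had none. The study's methods state that only reads with a single position were kept, and the read length is not given in the sources used here. Which copy the reads came from cannot be told apart, and the part of this in the results was not tested. With summits kept only where at least 50% of the words of 50 bases within 100 bp occurred once, a rule chosen after seeing the data, 17, 1 and 20 regions were left in the 3 libraries. AC079949.1 was then the 1 region left in all 3 libraries, and its fold of 2.48 in VAL replicate 1 is below the minimum of 4 at which that library kept 11 of its 14 regions. RNU6ATAC, MIR4487, AL161626.1 and RNU2-64P were left in both lines as well. The median local background of passing peaks was 0.42, 2.26 and 0.363 reads. AC079949.1 lay above it in all 3 libraries, with 53.9 and 3.32 reads in the VAL replicates. In OCI-Ly1 and the second VAL replicate AL161626.1 had 7.99 and 3.77 reads, and RNU2-64P 2.36 and 5.92. RNU6ATAC (0.426 and 0.365) and MIR4487 (0.331 and 0.359) lay near the medians. Whether reads from other copies added to these summits was not tested.

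**Figure D4:**
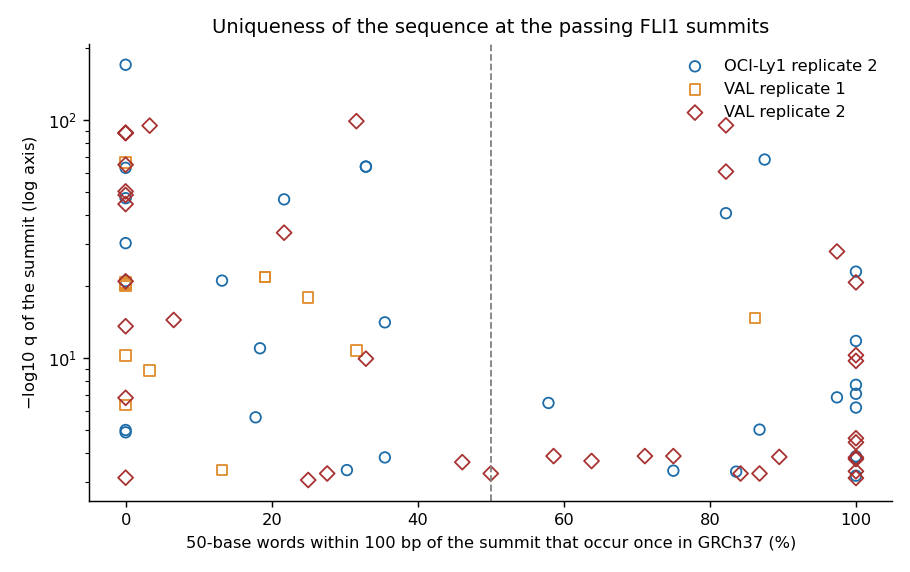
−log10 q of the strongest passing summit of each called region (vertical log axis) against the percent of words of 50 bases within 100 bp of it that occur once in GRCh37 (horizontal axis), with a symbol for each library and the 50% limit dashed. Many of the highest summits lie at or near 0%, and VAL replicate 1 has 1 region to the right of the limit.

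The motif was found at a minority of the summits. In OCI-Ly1 replicate 2, 8 of 33 peaks had it within 50 bp of the summit and 0 of 33 in a window 250 bp away, a difference of 24.2 percentage points (exact two-sided McNemar test, p = 0.00781, adjusted over 3 libraries 0.0234). This call was lost with regions of 500 bp on either side (adjusted exact p = 0.562), with no start site within 10 kb (0.938), with the control window 1000 bp away (0.0938), in mostly unique sequence (0.0938), and with ACCGGAA or GGAA as the motif, where the difference was 0.0 points. In VAL replicate 1, 2 of 13 had it at the summit and 1 of 13 in the control window (exact p = 1). In VAL replicate 2, 5 of 40 had it against 0 of 40 (exact p = 0.0625, adjusted 0.0938). The 3 libraries share members and copies, so the tests are not independent of each other. Copies also count as separate peaks within a test. Examples are AC079949.1 and AL161626.1 in OCI-Ly1 replicate 2, and SNORD3B-1 and SNORD3B-2 in VAL replicate 2. The p-values do not allow for this. Over all passing peaks the motif was at 35.1%, 36.1% and 28.4% of summits, and over those farther than 3 kb from a coding or lncRNA start site at 10.5%, 5.46% and 8.56%. Across whole regions the motif was present in 30.2% of the 53 called members and 8.2% of all members, and in 3.51% of U1 regions and 24.4% of U3 regions. Copies count as separate regions here too. The motif holds a CpG, and the median ratio of observed to expected CpG was 0.405 in called regions and 0.213 in those not called. The part of this in the motif shares was not tested.

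Few members far from coding and lncRNA start sites were called. In OCI-Ly1 replicate 2 the share was 0.803% for members 3 to 5 kb from a coding or lncRNA start site, 0.83% at 5 to 10 kb, 0.489% at 10 to 50 kb and 0.075% beyond 50 kb, against 0.259%, 0.205%, 0.14% and 0.0809% of tiles. The first VAL replicate gave 0.134%, 0.377%, 0.261% and 0%, against 0.0304%, 0.0426%, 0.0318% and 0.0303% of tiles. The second gave 0.803%, 0.905%, 0.652% and 0.075%, against 0.356%, 0.292%, 0.204% and 0.0916% of tiles. The shares did not fall steadily with distance, and the intervals of the first 3 bins overlapped within each library. Beyond 50 kb the members were not above the tiles, with 1, 0 and 1 of 1334 called in the 3 libraries. Members outside the body of any coding or lncRNA gene were called in 1.12% of 2494 regions, those on the same strand as a host gene in 0.707% of 2403 and those on the other strand in 0.507% of 1579. Of 384 members with a start site of a gene outside the small RNA, coding and lncRNA types within 3 kb, 7 were called (1.82%). Of the 6092 without one, 46 were called (0.755%). The regions called in any library had a median GC content of 49.6% against 41.1% in those not called, and a median of 72.5% against 87.0% of words of 31 bases that occur once.

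**Figure D5:**
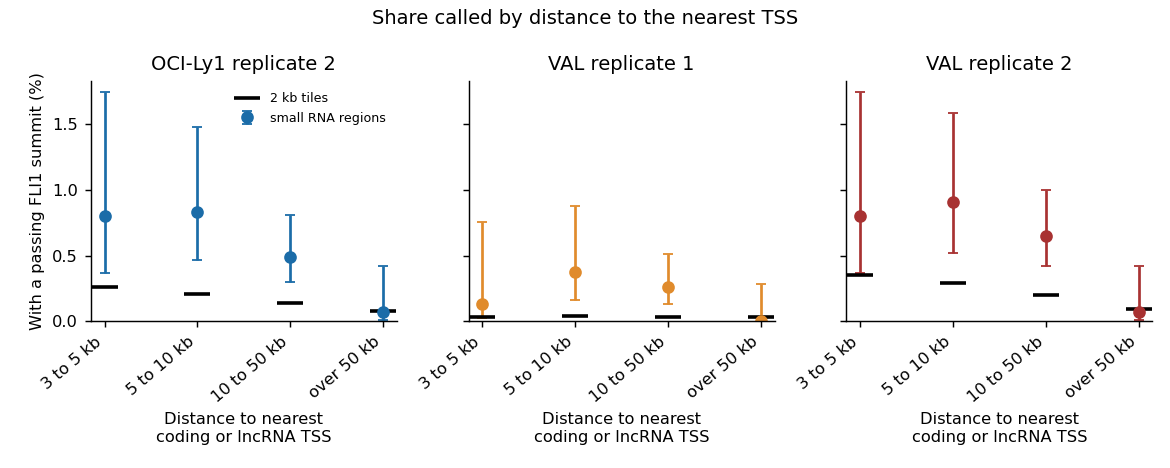
Percent of members with a passing FLI1 summit (points, with 95% Wilson intervals) and of 2 kb tiles (black bars) by distance to the nearest coding or lncRNA start site (horizontal axis), a panel for each library. The points of the members lie above the tiles up to 50 kb and not beyond, where OCI-Ly1 replicate 2 has 0.075% of members and 0.0809% of tiles.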

How the data were processed

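FLI1 ChIP-Seq peak lists of OCI-Ly1 and VAL were used as deposited, 1 list per library. Per the study's methods, reads were mapped to GRCh37 with bowtie2 and filtered with SAMtools for single-position, non-duplicate reads; the submitters' processing notes list CASAVA 1.4, BWA and hg19. The methods name HOMER as the peak caller, with an FDR of 0.001, whereas the deposited lists have the narrowPeak form that MACS2 writes; which caller made them, and with which control, is not given in the sources used here. The authors deposited for each peak a fold enrichment (ratio), a −log10 p, a −log10 q and a summit offset. The total reads of each library are unknown. The 3 lists used held 1107379, 237178 and 986629 peaks for OCI-Ly1 (replicate 2) and for VAL replicates 1 and 2, of which 5354, 973 and 6474 passed (−log10 q of at least 3, an FDR of 0.001). Reads at a summit were inferred from fold and p under a Poisson model, which gave a solution within 0.01 for every passing peak; passing summits had at least 6, 8 and 6 reads.

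Genes came from GENCODE release 44 lifted to GRCh37. Summits were counted with Python 3 scripts (pandas 2.3.3, scipy 1.17.1), tested on simulated data. The motif test was an exact two-sided McNemar test with Benjamini-Hochberg adjustment over 3 libraries. Named genes were the 12 members passing in all 3 libraries with the highest lowest −log10 q, the 3 highest per type over OCI-Ly1 replicate 2 and VAL replicate 2, and called members of the 3 lists; RNVU1-13, RNVU1-15, RNVU1-19, RNU1-64P, SNORD3B-1, RNU2-64P, RNU2-59P, RNU6-395P, AL161626.1, MIR4487, MIR4425, MIR625, MIR339 and the U3 copy on chromosome 10 were chosen after their values were seen. The members and lists were chosen with earlier results of these data known. Nothing says that replicates came from separate cultures.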

Additional observations from a re-analysis of the deposited data

How the results depend on the processing

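Of 118 recomputed values, 78 stayed within 1.5 times the main count or kept the direction and side of the threshold of the motif test. At a −log10 q of at least 5, VAL replicate 2 and either VAL replicate had 21 regions and any library 27. With all listed peaks, 3962, 1129 and 3742 regions were counted in OCI-Ly1 and the first and second VAL replicates, 5301 in any library, 4084 in either VAL replicate, 787 in both, 2745 in both lines and 593 in all 3. With no coding or lncRNA start site within 10 kb, the same counts were 16, 8, 21, 27, 21, 8, 10 and 7. In mostly unique sequence, an alternative chosen after seeing the data, they were 17, 1, 20, 32, 20, 1, 5 and 1. Leaving out 1 library gave 34 to 53 regions in any library, 14 to 39 in either VAL replicate and 13 to 19 in both lines, the lowest of these without VAL replicate 2. The motif difference in OCI-Ly1 replicate 2 (24.2 points) was past the threshold in the main test and not with regions of 500 bp (13.0 points, adjusted exact p = 0.562), without start sites within 10 kb (12.5, 0.938), with ACCGGAA (0.0, 1) or GGAA (0.0, 1), with the control at 1000 bp (21.2, 0.0938) or in mostly unique sequence (35.3, 0.0938). In VAL replicate 2 it passed with all listed peaks (0.518 points, adjusted exact p = 0.0108) and within 100 bp (15 points, 0.0469) and was −25.0 points with GGAA (0.0927). In VAL replicate 1 it passed with all listed peaks (1.1, 0.0108) and was −14.3 points without start sites within 10 kb (1). The cause of these changes was not tested, beyond the fewer regions and peaks that the stricter settings hold. Apart from the paired windows of the motif test, no paired analysis was possible because OCI-Ly1 has 1 usable library. No result compares the lines by a test. Passing summits rest on as few as 6 reads, which limits what a missing summit shows.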
